A study of Rattus norvegicus with 4 samples.

Results

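The Slc25 family holds the carriers that move metabolites across the inner mitochondrial membrane, and its members were taken as every gene symbol beginning with Slc25a. The count tables held 40 such symbols among 16881, and the uncoupling protein genes named Ucp were left out. Of the 40, 33 had 10 or more counts in at least 1 library and were tested among 10516 genes. Slc25a34 had counts in 1 library only (5 counts on PUCL@CNT1 in maintenance medium) and was not tested. Slc25a2, Slc25a15, Slc25a21, Slc25a41, Slc25a47 and Slc25a54 had 0 counts in all 4 libraries. Of the tested members, 27 had a count in every library and 6 had 0 in at least 1. RefSeq lists 9 further symbols of the family, Slc25a12 and Slc25a13 among them, which were not analysed here.

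The cells were wild-type rat neural stem/progenitor cells, a cultured population that can form neurons and glia. They were grown on PUCL@CNT1, which the series title describes as an electroconductive nanohybrid scaffold, or on bare PUCL. All cells first spent 24 h in a stemness-maintaining medium (maintenance medium), and the differentiation libraries came from cells moved to a neuronal medium with the B-27 Plus supplement for a further 1.5 d (differentiation medium). The groups were PUCL@CNT1 in differentiation medium, PUCL in differentiation medium, PUCL@CNT1 in maintenance medium and PUCL in maintenance medium, with 1 library each, and sets of 4 values below follow this order. Medium and time in culture changed together, and cell number, passage and animal source were not given in the sources used here.

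Carrier proteins share a fold of repeated membrane segments, and each type exchanges or imports particular substrates such as ADP and ATP, phosphate, citrate, glutamate or cofactors. They link the citric acid cycle and oxidative phosphorylation inside mitochondria to synthesis in the cytosol. In neural progenitors, lipid synthesis depends on citrate that leaves mitochondria, and neuronal differentiation is known to go with greater reliance on oxidative phosphorylation.

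Libraries held 6035848 to 6855984 counts from a kit that reads the 3′ ends of polyadenylated transcripts. Values are given as CPM (counts relative to library size, scaled between libraries by the trimmed mean of M values), and they are not divided by length because a 3′ kit does not sample along the transcript. The neural stem/progenitor markers Nes, Sox2, Vim, Fabp7, Pax6 and Sox9 were detected in all libraries and summed to 10632, 8085, 6933 and 6546 CPM, most of it from Vim. Sox2 and Pax6 did not follow the order of that sum and had their highest counts on PUCL in differentiation medium. Fabp7 (7396, 6921, 3602 and 4037 counts) and Sox9 (4910, 4213, 3378 and 3985 counts) did not follow it either. Both were lowest on PUCL@CNT1 in maintenance medium. All 4 microglia markers were at 0, as were Pecam1 and Cdh5 of endothelium and Rgs5 of mural cells. The ribosomal RNA entries held 8.49%, 13.4%, 9.14% and 11.4% of counts, over entries that overlap each other. Fewer cells of a type and less RNA per cell cannot be told apart in such bulk samples.

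Slc25a1, the mitochondrial citrate carrier, was the only carrier that the test called lower after the switch to differentiation medium. It exports citrate to the cytosol, where citrate is split to acetyl-CoA for fatty acid and sterol synthesis. Its level was 62.6 CPM on PUCL@CNT1 and 63.7 CPM on PUCL in differentiation medium, against 156 CPM on PUCL@CNT1 and 289.6 CPM on PUCL in maintenance medium. The differentiation libraries lay close together and below both maintenance libraries, which themselves lay well apart. The ratio was 2.49-fold lower on PUCL@CNT1 (log2 -1.31, 95% counting interval -1.49 to -1.15) and 4.54-fold lower on PUCL (log2 -2.18, -2.34 to -2.03). In edgeR's quasi-likelihood test with medium and platform as terms, the fitted log2 change was -1.75 (SE 0.295), with an adjusted p of 1.98e-05 by the Benjamini-Hochberg method over all genes tested, rank 29 of 10516. That test has 1 residual degree of freedom and takes most of its spread from other genes. Without the PUCL maintenance library (and without the platform term, which 3 libraries cannot carry) the change was -1.30 with an adjusted p of 0.356, so the call rests on that library. Over all genes that fit called 25 higher and 3 lower, against 189 higher and 107 lower with all libraries. Slc25a1 made up 1.89%, 2.18%, 5.09% and 10.2% of all carrier counts.

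The 250 bases before the annotated start of Slc25a1 on rat chromosome 11 (RefSeq, GRCr8, plus strand, chr11:96559804-96560053) are shown because it was the carrier called in the medium comparison. Capitals mark the CCAAT box (CCAAT) and the GC box (GGGCGG) on either strand.
Slc25a1: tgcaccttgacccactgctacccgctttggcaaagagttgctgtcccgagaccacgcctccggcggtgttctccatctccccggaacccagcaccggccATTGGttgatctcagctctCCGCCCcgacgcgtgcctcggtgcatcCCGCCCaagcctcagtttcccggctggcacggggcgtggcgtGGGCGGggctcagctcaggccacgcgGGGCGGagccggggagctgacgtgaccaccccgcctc
The window held a CCAAT box on the other strand and 4 GC boxes, the nearest of which began 37 bases before the start. Over 33469 rat windows of the same length, 34% held a CCAAT box and 30.5% a GC box, and among 34 carriers with a window 19 held the first and 21 the second. A sterol regulatory element searched as TCACNCCAC was in 0 of the 34 carrier windows and in 0.974% of all windows. The NRF1 motif, a palindrome searched without mismatches, was also in 0 carrier windows (0.762% of all), and an E-box (CACGTG) was in those of Slc25a2 and Slc25a33 (5.59% of all). These letters describe the windows and show neither binding nor a cause.

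Of the 33 tested carriers, 1 was lower and 0 were higher after the medium switch in edgeR, while over all genes 1.02% were lower and 1.8% higher. At an unadjusted p under 0.05 there were 4 carriers (12.1% of them), and 12.1% of all genes tested. The same 1 lower and 0 higher were called by DESeq2 and by limma-voom. The median fitted log2 change of the carriers was 0.20, beside 0.00 over all genes, with 21 above 0 and 12 below. The carriers' share at the unadjusted threshold was thus that of the whole table.

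**Figure D1:**
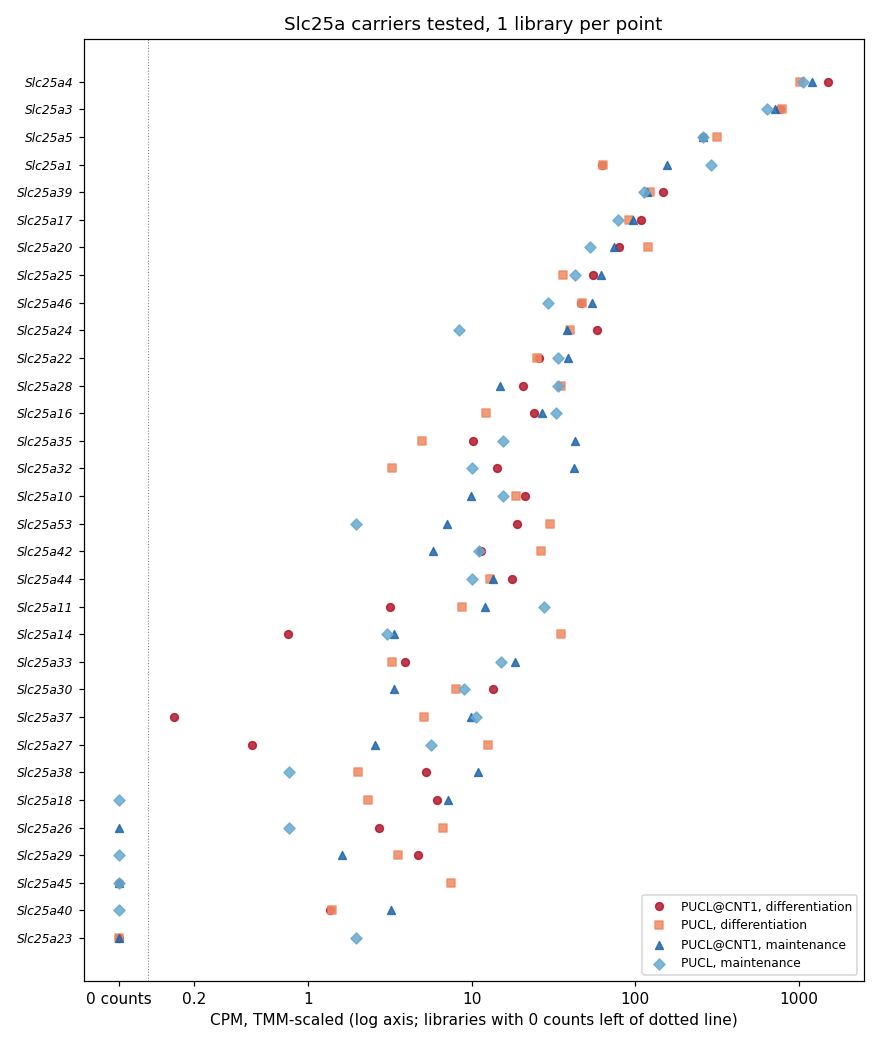
Level of 32 of the 33 tested carriers in CPM on a log axis, with 1 point per library, ordered by mean level. Slc25a4, Slc25a3 and Slc25a5 lie far to the right with points close together, while carriers under about 10 CPM scatter widely and 6 have at least 1 library at 0.

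The most abundant carriers were those of oxidative phosphorylation. Slc25a4 and Slc25a5 exchange cytosolic ADP for mitochondrial ATP, and Slc25a3 imports phosphate for ATP synthesis. These 3 genes held 76.5%, 72.8%, 71% and 68.9% of the carrier counts in the 4 libraries, in the order given above. Slc25a3 stood at 762 and 788 CPM in differentiation medium, against 713 and 638 CPM in maintenance medium, and did not pass the test (fitted log2 0.20, edgeR adjusted p 0.84). The differentiation libraries were both above the maintenance libraries, by 1.24-fold between the highest and the lowest. Among the 10 most abundant carriers the ratio of the highest to the lowest library had a median of 1.6 (1.23 to 7, the last in Slc25a24), and among the 17 others with a count in every library a median of 5.62, at lower counts.

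Slc25a4 had 1506 CPM on PUCL@CNT1 and 1021 CPM on PUCL in differentiation medium, and 1201 CPM on PUCL@CNT1 and 1058 CPM on PUCL in maintenance medium. Both PUCL@CNT1 libraries were above both PUCL libraries, with platform log2 ratios of 0.56 (counting interval 0.51 to 0.60) and 0.18 (0.14 to 0.23). The platform term did not pass the test (fitted log2 0.37, SE 0.162, edgeR adjusted p 0.576). Ribosomal RNA shares moved the opposite way between platforms (the percentages above), and with those entries removed the fitted value was 0.37 with an adjusted p of 0.501.

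Its paralogue Slc25a5 had 260.1 and 316 CPM in differentiation medium, against 257 and 260.4 CPM in maintenance medium, so that only the PUCL differentiation library stood apart. Of the counts of both ADP/ATP carriers, Slc25a4 held 85.3% on PUCL@CNT1 (exact binomial 95% interval 84.6 to 85.9) and 76.4% on PUCL (75.5 to 77.3) in differentiation medium. In maintenance medium it held 82.4% on PUCL@CNT1 (81.6 to 83.1) and 80.2% on PUCL (79.4 to 81.1). The share was higher on PUCL@CNT1 in both media, a comparison of single libraries with no replicate check. RefSeq names 9 pseudogenes of Slc25a5, 2 of Slc25a3 and 1 of Slc25a4, so reads of such copies may have been split or shared.

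The windows before the starts of both ADP/ATP carriers, on chromosome 16 (chr16:52805271-52805520) and chromosome X (chrX:120897366-120897615), both on the plus strand of GRCr8, are set side by side to compare the paralogues, with the same motifs in capitals.
Slc25a4: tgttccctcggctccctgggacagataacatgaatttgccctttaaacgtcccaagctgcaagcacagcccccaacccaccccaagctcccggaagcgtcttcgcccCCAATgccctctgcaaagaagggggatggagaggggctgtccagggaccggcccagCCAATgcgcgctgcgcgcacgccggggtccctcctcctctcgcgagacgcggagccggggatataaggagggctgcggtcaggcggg
Slc25a5: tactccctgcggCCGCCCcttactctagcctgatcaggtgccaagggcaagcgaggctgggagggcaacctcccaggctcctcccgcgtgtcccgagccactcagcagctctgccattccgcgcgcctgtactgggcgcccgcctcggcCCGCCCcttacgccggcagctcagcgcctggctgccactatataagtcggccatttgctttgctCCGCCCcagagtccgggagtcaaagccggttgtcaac
The window of Slc25a4 held 2 CCAAT boxes and 0 GC boxes, and that of Slc25a5 held 0 CCAAT boxes and 3 GC boxes on the other strand.

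Among the other nucleotide carriers, Slc25a17, a peroxisomal carrier of cofactors and nucleotides, was steady at 108, 90.8, 96.7 and 78.4 CPM. Slc25a24 and Slc25a25 are calcium-regulated carriers that exchange ATP-Mg for phosphate. Slc25a24 had 58.4 and 39.6 CPM in differentiation medium, against 38.4 CPM on PUCL@CNT1 and 8.34 CPM on PUCL in maintenance medium. Here the PUCL maintenance library alone was low, and neither medium (fitted log2 1.40, SE 0.529, edgeR adjusted p 0.166) nor platform (1.36, SE 0.529, adjusted p 0.444) passed. Slc25a25 ranged from 35.9 to 61.8 CPM and was higher on PUCL@CNT1 in both media (log2 0.61 and 0.54, edgeR adjusted p 0.985). Their relative Slc25a23 had 13 counts in the PUCL maintenance library and 0 in the others.

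Slc25a33, a pyrimidine nucleotide carrier needed for mitochondrial DNA and RNA synthesis, stood at 3.91 and 3.25 CPM in differentiation medium, against 18.2 and 15.2 CPM in maintenance medium. The ratios were nearly equal on both platforms, at log2 -2.20 on PUCL@CNT1 and -2.20 on PUCL. The fit did not call it (fitted log2 -2.22, edgeR adjusted p 0.546), at 21 to 114 counts a library.

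Single pairs of libraries were described by a rule of size, a ratio of at least 2-fold whose nearer 95% counting bound lay beyond 1.5-fold. For the medium switch on PUCL@CNT1, 4 carriers were higher and 8 lower by this rule (16.5% and 14.5% of all genes). On PUCL, 10 were higher and 8 lower (16% and 15.2% of all genes). Both platforms together gave 2 higher, Slc25a26 and Slc25a53 (4.35% of all genes), and 5 lower, Slc25a1, Slc25a11, Slc25a32, Slc25a33 and Slc25a35 (3.52% of all genes). Slc25a14 alone passed in opposite directions (4.18% of all genes). Since many genes pass this rule between single libraries, it describes sizes and tests nothing. Over carriers with a count in at least 1 library of the pair, the median log2 ratio was 0.015 on PUCL@CNT1 (31 carriers, 16 above 0 and 15 below) and 0.27 on PUCL (33 carriers, 20 above 0 and 13 below). Over all genes with such a count the medians were 0.026 and -0.009.

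**Figure D2:**
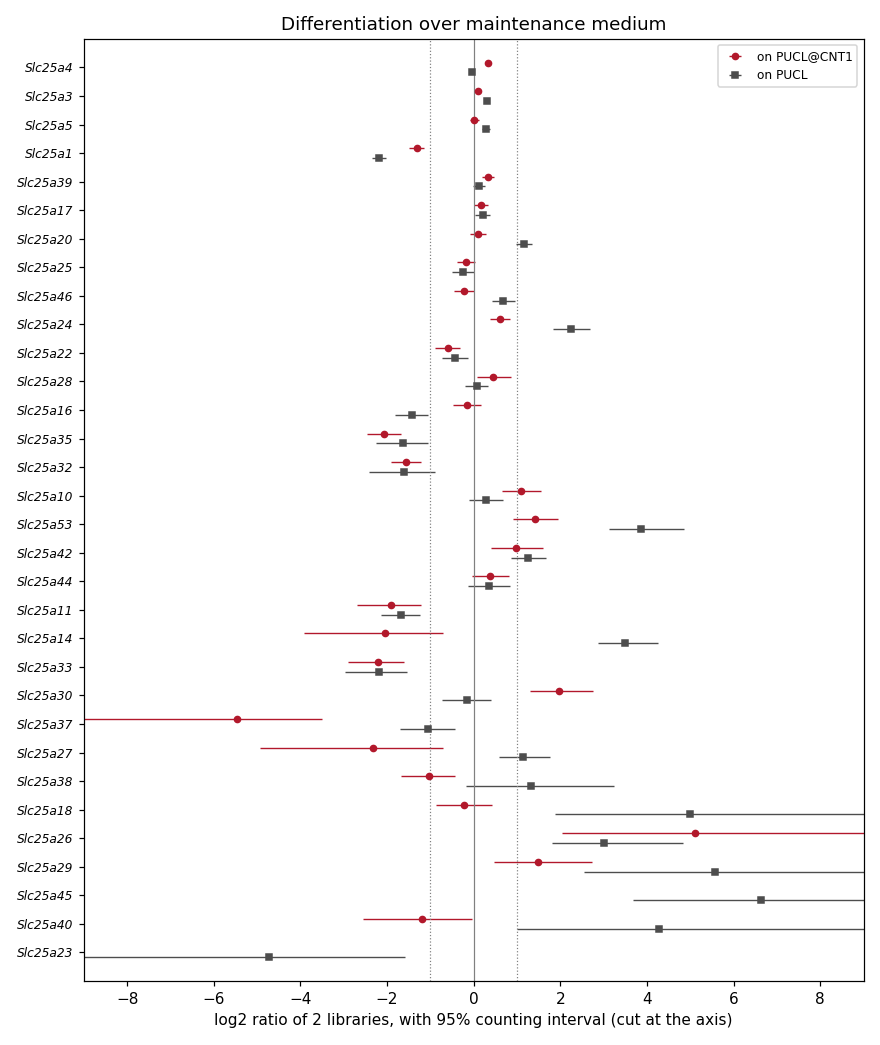
Log2 ratio of differentiation over maintenance medium for 32 tested carriers on PUCL@CNT1 (circles) and PUCL (squares), with 95% counting intervals and dotted lines at 2-fold; a pair with 0 counts in both libraries has no point. Slc25a1, Slc25a11, Slc25a32, Slc25a33 and Slc25a35 pass the size rule left of the lines on both platforms, and Slc25a14 passes it on opposite sides. Slc25a37 also lies left of the lines on both platforms, and Slc25a27, Slc25a38 and Slc25a40 lie beyond them on opposite sides. These do not pass the rule in both pairs.

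Carriers of citric acid cycle intermediates had 3 tested members, of which Slc25a1 alone was called for medium. Slc25a11 exchanges 2-oxoglutarate for malate in the malate-aspartate shuttle. Its levels of 3.16 and 8.66 CPM in differentiation medium lay below those of 12.01 and 27.8 CPM in maintenance medium, and in each medium PUCL@CNT1 was below PUCL. The fitted log2 change was -1.80 for medium (edgeR adjusted p 0.532) and -1.33 for platform (adjusted p of 1), so neither passed. The dicarboxylate carrier Slc25a10 had 21.2 and 18.7 CPM in differentiation medium, against 9.93 and 15.5 CPM in maintenance medium (edgeR adjusted p 0.919).

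The fit called 0 of 5 tested amino acid carriers for medium or platform. Over all genes 1.8% were called higher and 1.02% lower for medium, and 0.209% and 0.247% for platform. At such shares 0 calls in a small group or list, here and below, say nothing about its role. The glutamate carrier Slc25a22 had 25.7 and 25.1 CPM in differentiation medium, against 38.9 and 33.8 CPM in maintenance medium (fitted log2 -0.51, edgeR adjusted p 0.891). Its paralogue Slc25a18 was low, with 41, 15, 45 and 0 counts. Slc25a38, which imports glycine for heme synthesis, had 35, 13, 68 and 5 counts, higher on PUCL@CNT1 in each medium. Slc25a44, a carrier of branched-chain amino acids, ranged from 10.01 to 17.6 CPM, and Slc25a29, a carrier of basic amino acids, had 31, 23, 10 and 0 counts.

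Cofactor, carnitine and glutathione carriers had 8 tested members, with 0 called for medium or platform. Slc25a39, needed for glutathione import, was among the abundant ones at 147 and 123 CPM in differentiation medium, against 118 and 113 CPM in maintenance medium (fitted log2 0.22, edgeR adjusted p 0.934). RefSeq names 8 pseudogenes of it. Its paralogue Slc25a40 stayed at or under 20 counts in every library.

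Slc25a20, which exchanges acylcarnitines for carnitine so that fatty acids can be oxidised, had 79.6 and 119 CPM in differentiation medium, against 74.1 and 53.1 CPM in maintenance medium. Its medium ratio was log2 0.10 on PUCL@CNT1 and 1.17 on PUCL, and the term did not pass (fitted log2 0.63, edgeR adjusted p 0.503). Slc25a32, a carrier for folate and FAD, had 14.3 CPM on PUCL@CNT1 and 3.25 CPM on PUCL in differentiation medium, and 42.1 CPM on PUCL@CNT1 and 10.01 CPM on PUCL in maintenance medium. It was lower in differentiation medium by a near equal ratio on both platforms (log2 -1.55 and -1.60) and higher on PUCL@CNT1 in both media (log2 2.11 and 2.06). Neither passed in edgeR, with adjusted p 0.416 for medium and 0.437 for platform.

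Slc25a26, the S-adenosylmethionine carrier, had 18 and 43 counts in differentiation medium, against 0 and 5 counts in maintenance medium. On PUCL@CNT1 the ratio was 5.64-fold with a floor of 3 counts in place of the 0 of the maintenance library. The lower 95% counting bound of the ratio was 4.13-fold. On PUCL it was log2 3.01 (edgeR adjusted p 0.886). Slc25a16 and Slc25a42 are linked to coenzyme A transport. Slc25a16 had 23.9, 12.2, 26.7 and 32.9 CPM, and the PUCL differentiation library was low. Slc25a42 had 11.4, 26.5, 5.76 and 11.1 CPM, and here that library was high.

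The mitoferrins Slc25a28 and Slc25a37 import iron for heme and iron-sulfur clusters. Slc25a28 had 20.5 CPM on PUCL@CNT1 and 35.3 CPM on PUCL in differentiation medium, and 14.9 CPM on PUCL@CNT1 and 33.7 CPM on PUCL in maintenance medium. It was lower on PUCL@CNT1 in both media (fitted platform log2 -0.98, edgeR adjusted p 0.879). Slc25a37 had 1, 33, 62 and 70 counts, with the PUCL@CNT1 differentiation library the lowest (medium adjusted p 0.74 in edgeR). On PUCL it was also lower in differentiation medium (log2 -1.045, 95% counting interval -1.70 to -0.44).

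The 3 relatives of the uncoupling proteins differed widely between libraries, and the fit called 0 of them. Slc25a14 had 0.752 CPM on PUCL@CNT1 and 35.0 CPM on PUCL in differentiation medium, and 3.36 CPM on PUCL@CNT1 and 3.03 CPM on PUCL in maintenance medium. The PUCL differentiation library alone was high, at 226 counts against 5 to 21. Slc25a27 had 3, 81, 16 and 37 counts, and Slc25a30 had 89, 52, 21 and 59. In differentiation medium the first 2 of these were both far lower on PUCL@CNT1 (log2 -5.40 and -4.58), with platform adjusted p-values of 0.928 and 1 in edgeR. The uncoupling gene Ucp2, which the symbol rule leaves out, rose after the switch (876 and 1971 counts in differentiation medium, against 43 and 95 in maintenance medium; edgeR adjusted p 1.19e-16).

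Of 4 tested carriers with other or unassigned roles, 0 were called for medium or platform. Slc25a35 had 10.2 and 4.95 CPM in differentiation medium, against 42.9 and 15.5 CPM in maintenance medium, and Slc25a53 had 18.8 and 29.9 CPM in differentiation medium, against 7.04 and 1.97 CPM in maintenance medium. The fitted log2 changes of Slc25a35 and Slc25a53, -1.86 and 2.62, had adjusted p-values of 0.254 and 0.195 in edgeR. Slc25a46, an outer membrane protein of mitochondrial dynamics, had 46.6, 46.9, 54.6 and 29.3 CPM. Slc25a45 had 48 counts on PUCL in differentiation medium and 0 in the other libraries.

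**Figure D3:**
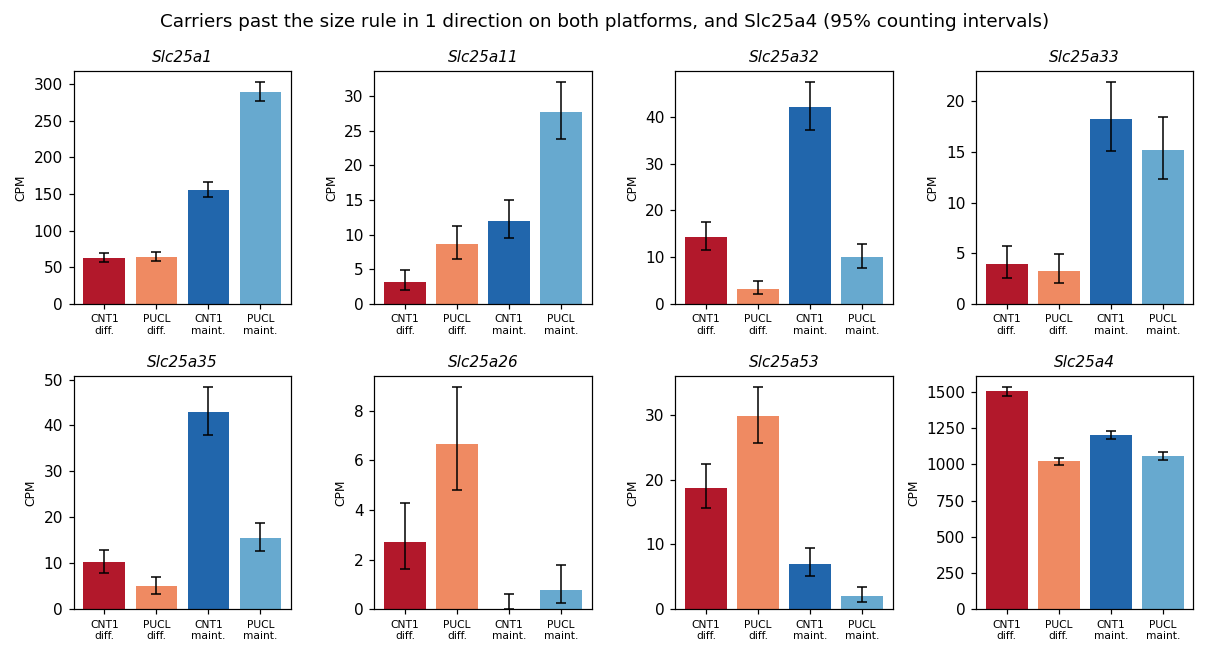
Level in CPM of the 7 carriers past the size rule in 1 direction on both platforms, and of Slc25a4, in each library, with exact 95% Poisson counting intervals as bars; there is 1 library per bar, and CNT1 stands for PUCL@CNT1. Slc25a1 is at 62.6 and 63.7 CPM in the differentiation libraries, against 156 and 289.6 CPM in maintenance medium.

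For PUCL@CNT1 against PUCL, 0 of 33 carriers were higher and 0 lower in edgeR (0.209% and 0.247% of all genes), and DESeq2 and limma-voom also called 0. At an unadjusted p under 0.05 edgeR had 3 carriers, Slc25a4, Slc25a24 and Slc25a32 (9.09% of them, and 6.95% of all genes). Each was higher on PUCL@CNT1 in both media, as were 39.4% of carriers and 27.2% of all genes. The fit takes the media as repeats, so a low p favours such agreement, which is no added support. By the size rule, 1 carrier was higher and 6 lower in differentiation medium (15.2% and 15.6% of all genes), and 8 were higher and 4 lower in maintenance medium (12.1% and 13.9% of all genes). Slc25a32 was higher in both media (2.52% of all genes) and Slc25a11 lower in both (3.17% of all genes), and 0 carriers passed in opposite directions (4.98% of all genes). Over carriers with a count in either library, the median log2 ratio was 0.11 in differentiation medium and 0.17 in maintenance medium (32 carriers each), beside 0.018 and -0.012 for all genes.

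**Figure D4:**
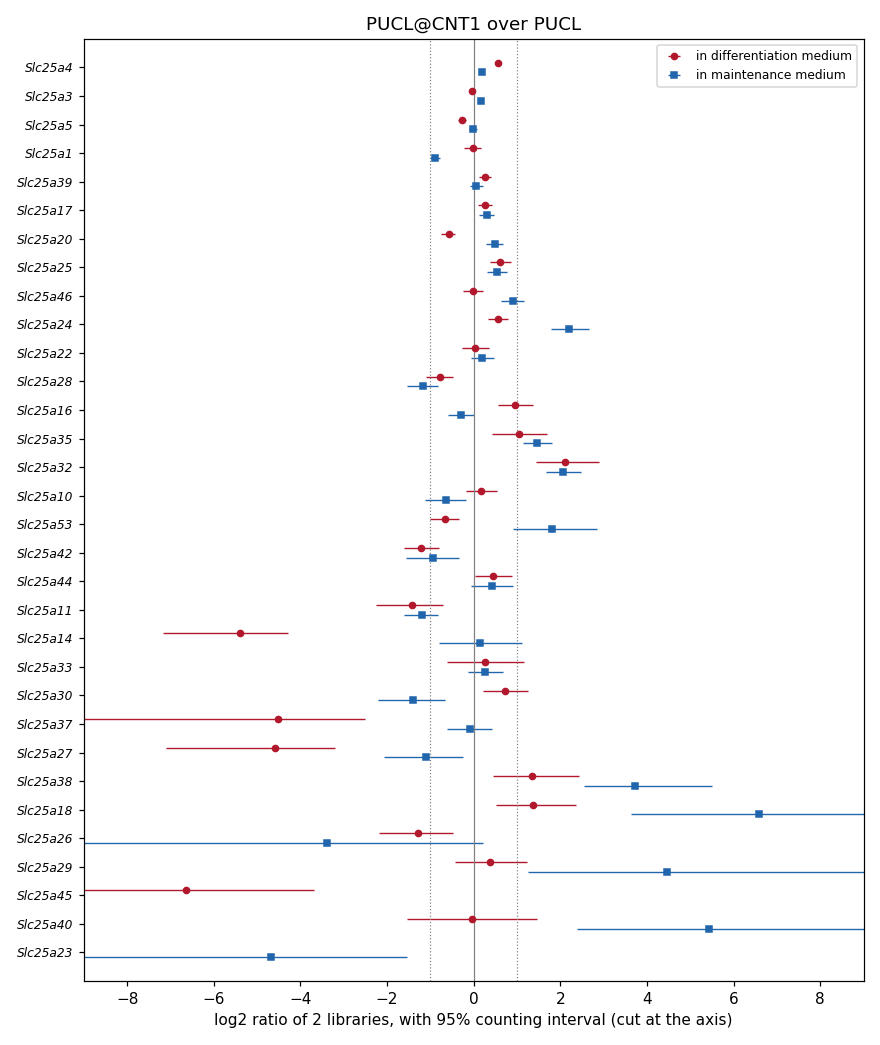
Log2 ratio of PUCL@CNT1 over PUCL for 32 tested carriers in differentiation medium (circles) and maintenance medium (squares), with 95% counting intervals and dotted lines at 2-fold; a pair with 0 counts in both libraries has no point. Slc25a32 lies right of the lines and Slc25a11 left of them in both media, and both pass the size rule there. Slc25a18, Slc25a35 and Slc25a38 also lie right, and Slc25a26 and Slc25a27 left, in both media without passing the rule in both. Slc25a14, Slc25a27, Slc25a37 and Slc25a45 lie far left in differentiation medium.

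Carriers held 0.321% of all counts on PUCL@CNT1 and 0.287% on PUCL in differentiation medium, and 0.317% on PUCL@CNT1 and 0.288% on PUCL in maintenance medium. The family share was higher on PUCL@CNT1 in each medium. Without Slc25a4 the shares were 0.175% and 0.186% in differentiation medium and 0.192% and 0.181% in maintenance medium, so the platforms then differed in opposite directions. All counts here include the ribosomal RNA entries, whose share was lower on PUCL@CNT1 in each medium (8.49% against 13.4%, and 9.14% against 11.4%). Carrier shares of the counts without those entries were not computed.

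The platform difference itself changed between media in 12 carriers by the same sizes, with 3 changes upward and 9 downward (15.4% and 14.1% of all genes). Upward here means a higher PUCL@CNT1 to PUCL ratio in differentiation medium. Upward changes included those of Slc25a16 and Slc25a30, at log2 1.26 and 2.12. Downward ones were in Slc25a14, Slc25a18, Slc25a20, Slc25a24, Slc25a27, Slc25a37, Slc25a38, Slc25a40 and Slc25a53, between log2 -5.55 and -1.06. With 1 library per group this interaction has no test, and 6 of the 12 (Slc25a14, Slc25a18, Slc25a27, Slc25a37, Slc25a38 and Slc25a40) rest on a library with 5 counts or fewer.

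Genes that work with the carriers were looked at in 3 lists. Carrier import genes, such as the receptor Tomm70a and the inner membrane translocase Timm22, had 13 tested members with 0 called for medium or platform. Tomm70a had the lowest medium p of these, with 288 and 76 counts in differentiation medium, against 432 and 401 in maintenance medium (fitted log2 -1.50, edgeR adjusted p 0.0588). Other mitochondrial transporters and channels, with the pyruvate carrier genes Mpc1 and Mpc2 and the porins Vdac1, Vdac2 and Vdac3, had 16 tested members, and Ucp2 alone passed, for medium. Of 12 genes of mitochondrial content, such as Cs and Tfam, 0 passed, and 10 had fitted medium changes below 0, with a median of -0.28 beside 0.00 over all genes.

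Marker levels of other cell types also moved with medium and platform. The 4 oligodendrocyte lineage markers, all detected, summed to 1286 and 1321 CPM in differentiation medium, against 717 and 826 CPM in maintenance medium. Olig1 and Mbp were higher in both differentiation libraries. Olig2 (2930, 3063, 1975 and 2978 counts) and Pdgfra (69, 138, 52 and 108 counts) did not separate by medium. The 4 mural and fibroblast markers, nearly all from Acta2, summed to 356 and 500 CPM in differentiation medium, against 747 and 1064 CPM in maintenance medium. Their order over the 4 libraries was also that of Slc25a1, though its differentiation libraries were nearly equal at 416 and 412 counts. Col1a1 did not follow that order (88, 7, 1 and 84 counts). The neural stem/progenitor sum, most of it from Vim, had the reverse order, which Sox2, Pax6, Fabp7 and Sox9 did not follow. Astrocyte markers summed to 114, 616, 88.5 and 105 CPM, nearly all from S100b, while Gfap, Aqp4 and Aldh1l1 were at 0 in at least 2 libraries each; Slc25a14 was likewise highest on PUCL in differentiation medium. Neuron markers summed to 54.3, 79, 108 and 99.6 CPM, most of it from Map2. Dcx went the other way with 61 and 79 counts in differentiation medium, against 39 and 48 in maintenance medium. Tubb3 had 62, 25, 20 and 28 counts, highest where the sum was lowest, and Rbfox3 had 0, 0, 1 and 29. Endothelial markers summed to 29.5, 2.78, 14.9 and 14.4 CPM. The part of such markers in the carrier results was not tested.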

How the data were processed

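Libraries were made with a Lexogen QuantSeq kit from 500 ng of RNA, per the labels' protocols. The authors deposited whole-number counts by gene symbol, not normalized. The tools Bowtie2 and bedtools and the build rn6 are named in the submitters' processing notes; versions, annotation, strand setting and filters were not given in the sources used here. Antisense or overlapping genes therefore cannot be told apart, and in GRCr8 23 of the 40 carriers overlap another gene. Rows of a symbol were summed (no carrier had more than 1 row).

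Genes reaching 10 counts in any library were fitted in edgeR 4.0.16 (R 4.3.3) with trimmed-mean scaling and terms for medium and platform, with 1 residual and 87.2 prior degrees of freedom, at an adjusted p of 0.05. In this fit each platform serves as a repeat for the effect of medium, and each medium as a repeat for that of platform. The fitting code was checked on simulated data, which says nothing of the spread between real cultures. Pair ratios used a prior count of 0.5 and exact 95% binomial intervals; intervals cover counting error only. DESeq2 1.42.0 and limma 3.58.1 were alternatives. Named were carriers past the threshold, past the size rule in both pairs of a contrast, with a changed platform difference, the 10 most abundant and listed paralogues; remaining carriers were added to account for the others. The values of 1 tested carrier are not reported here, though it stays in the fits and counts. Members and lists were chosen with earlier results of these data known. All 40 symbols matched RefSeq (GRCr8), which gave the windows, and 34 had a full window.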

Additional observations from a re-analysis of the deposited data

Results flagged for a closer look

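Slc25a14, an uncoupling protein relative, had medium differences in opposite directions on the platforms, each past the size rule (log2 -2.06 on PUCL@CNT1 and 3.49 on PUCL). The change of its platform difference between media was log2 -5.55 (95% counting interval -7.05 to -4.05). The difference was not tested, since each group has 1 library. It was the single carrier of this kind among 33 (3.03%), beside 4.18% of all genes tested. In GRCr8 it overlaps Zfp280c, and the part of that gene's reads was not tested.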

How the results depend on the processing

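Slc25a1 stayed lower in differentiation medium in all 12 alternatives (log2 -2.20 to -1.30) and passed in 11, at adjusted p-values from 1.4e-06; leaving out the PUCL maintenance library gave 0.356. Leaving out each library in turn thus gave 0 to 1 lower carriers for medium. The counts of 0 higher carriers for medium, and of 0 higher and 0 lower for platform, held in all 12, but for platform 3 of these called 0 genes of any kind (the medium term left out, no PUCL differentiation library, a mean of 50 or more counts) and so say nothing of the carriers, and leaving out the PUCL maintenance library called 0 genes higher and 2 lower. Under a looser rule (1.5-fold with the nearer bound beyond 1) 17 carriers in place of 7 passed between platforms in differentiation medium. With all 33 carriers, those at 0 in both libraries included, the median for medium on PUCL@CNT1 was -0.09, a value that the prior count sets; leaving those out, a choice made after seeing the data, gave the 0.015 above and moved the other medians by less. On genes with a mean of 50 or more counts, carrier medians were 0.078 for medium on PUCL@CNT1, 0.10 for medium on PUCL and 0.22 for platform in differentiation medium; fewer genes enter. Over all genes the medium calls were 189 higher and 107 lower, against 139 and 121 under total counts, 107 and 52 in DESeq2, 37 and 27 with a mean of 50 or more counts, 10 and 6 without the PUCL@CNT1 maintenance library, and 25 and 3 without the PUCL maintenance library. The platform calls were 22 higher and 26 lower, against 6 and 12 with relative log expression scaling in edgeR and 14 and 13 in DESeq2. They were 50 and 37 in limma-voom and 0 and 0 with a mean of 50 or more counts. No pairing of replicates was possible, since each group has 1 library and the labels give no replicate numbers. The other factor is already a term of the fit, and without it 1 carrier was lower for medium and 0 were called for platform. Low counts leave wide intervals, as for Slc25a27 between platforms in differentiation medium (log2 -7.10 to -3.20, with 3 counts on PUCL@CNT1).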
